A study of Mus musculus with 12 samples.

Results

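Renal cortex lacking the glucocorticoid receptor (GR) in its tubular epithelium was compared between injured and uninjured mice of that genotype. The comparison used 6 of the 12 arrays of the series, 3 titled GR KO with acute kidney injury (AKI) and 3 titled GR KO healthy, which are all the arrays with these titles. It covered 19938 genes, each read from a probe set with exactly 1 gene symbol, and for a gene with more than 1 of them from the one with the highest mean over the 12 arrays. GR KO mice had the genotype Pax8-Cre;nr3c1 flox/flox, in which Cre is driven by the Pax8 promoter in renal tubular epithelium, so Nr3c1, the gene of GR, is deleted there and other cell types of the cortex are not targeted. The 6 control arrays, used only to set the GR KO response beside the response of intact tubules, came from nr3c1 flox/flox mice without Cre. All 4 groups therefore carry floxed Nr3c1 alleles, and any effect of Cre itself goes with the GR KO genotype. AKI was induced with glycerol given into muscle, and cortex was taken 24 hours later. The healthy mice were a cohort of their own that received no injection, and whatever else set the cohorts apart enters the AKI difference. The sources used here do not give strain, sex or age.

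Glycerol destroys muscle fibres, and the released myoglobin is filtered, taken up by proximal tubule cells and broken down there, which loads these cells with heme and iron. Tubule cells answer with heme oxygenase, ferritin and the antioxidant genes under the transcription factor NRF2, switch on injury genes such as Havcr1 and Lcn2, and turn down transporters and metabolic enzymes. GR is a hormone-activated transcription factor that in the kidney controls genes of metabolism, transport, the clock and inflammation, and stress raises the hormone that activates it.

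Values are expression values on the log2 scale as deposited, and values of single arrays are listed in the order of replicates 1, 2 and 3. A difference is AKI minus healthy, so a difference of 1 is 2-fold, and it is given with its standard error (SE) and an adjusted p from the limma fit, with 0.05 as the threshold. A gene rose or fell where it passed that threshold, and one named as risen or fallen also passed in the same direction without GR KO healthy replicate 1 unless this is stated otherwise. The labels number the samples of a group without saying that each is a separate animal, so the p-values reflect the spread among the samples as numbered, and that spread may be technical. In whole cortex, fewer cells of a type and less RNA per cell cannot be told apart.

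Nr3c1 read 7.98 ± 0.12 (SD, n = 3) on the GR KO AKI arrays and 8.17 ± 0.04 (SD, n = 3) on the GR KO healthy arrays. The control means were 8.86 after AKI and 9.55 in healthy mice, so both GR KO groups lay below both control groups. Whether the probe set covers the deleted part of the gene is not known here. Within GR KO cortex the AKI difference of Nr3c1 was -0.20 (SE 0.10, adjusted p = 0.307). Proximal tubule markers were read beside the label renal cortex, which they cannot test without another tissue to compare. Lrp2, the endocytic receptor megalin, read 12.95, 13.03 and 12.98 after AKI and 12.87, 12.92 and 13.25 in healthy mice. Slc34a1, the sodium phosphate carrier, read 13.36, 13.62 and 13.54 against 13.61, 13.82 and 13.83.

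One healthy array stood apart from its group. GR KO healthy replicate 1 scored 34.8 on the third principal component, against 5.83 for the next highest of the 12 arrays. It read 9.94 for Lcn2 where the other 2 healthy arrays read 6.99 and 7.18, and 8.11 for Havcr1 where they read 6.90 and 5.87. Over 787 genes chosen because they fell at least 2-fold in control cortex, its median distance from the control healthy mean was -0.41, beside -0.16 and -0.16 in the other healthy GR KO arrays and -0.60, -0.45 and -0.48 in the GR KO AKI arrays. That array thus lay closer to the injured arrays than to its own group over these genes. Over the 519 genes that rose at least 2-fold in control cortex it read 0.11, near the 0.03 and 0.09 of its group and below the 0.76, 0.64 and 0.45 of the GR KO AKI arrays. The results within GR KO cortex are therefore given with and without it, and the reason for its position was not tested. For the difference of responses only the count over all genes is given without it.

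**Figure D1:**
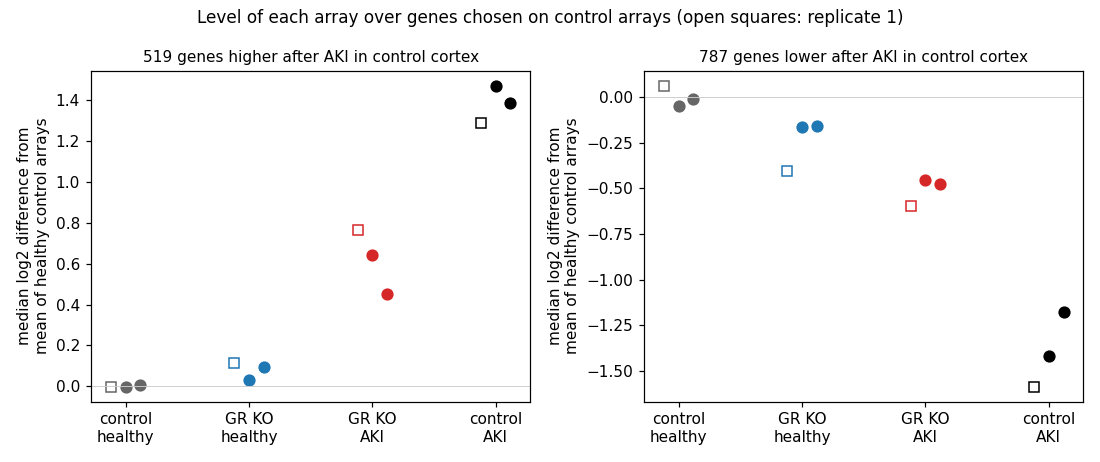
Median log2 distance of each of the 12 arrays from the mean of the healthy control arrays (vertical axis), over 787 genes that fell and 519 genes that rose at least 2-fold after AKI in control cortex. Squares are replicate 1 and circles replicates 2 and 3. Among the lowered genes GR KO healthy replicate 1, at -0.41, lies next to the 3 GR KO AKI arrays, which lie between -0.60 and -0.45, while the control AKI arrays lie between -1.58 and -1.18. The genes were chosen on the control arrays, so the control groups are apart by choice.

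Glycerol injury changed 926 of the 19938 genes in GR KO cortex (4.64%), of which 656 rose (3.29%) and 270 fell (1.35%). A change of at least 2-fold was seen for 109 of the risers (0.547% of all genes) and 26 of those that fell (0.13%). The median difference over all genes was -0.03. Each list count below stands against the shares over all genes, 3.29% higher and 1.35% lower. Without healthy replicate 1 the count was 635 (3.18%), with 422 higher (2.12%) and 213 lower (1.07%), and 542 genes were called both ways, all in the same direction. These 542 make up 58.5% of the calls on all arrays and 85.4% of the calls without the array. Leaving out AKI replicate 1 instead left 277 calls (1.39%), 212 higher (1.06%) and 65 lower (0.326%), the fewest of the 6 left-out fits, and leaving out AKI replicate 2 or healthy replicate 2 left 468 and 472. The genes named below as the largest changes were taken among those whose groups do not overlap, so that the absence of overlap there is by choice. Genes named for the smallest p in their list are likewise favoured to have groups that lie apart. Arrays of the groups did not overlap for 2557 genes that were higher (12.8%) and 2489 that were lower (12.5%) after AKI.

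**Figure D2:**
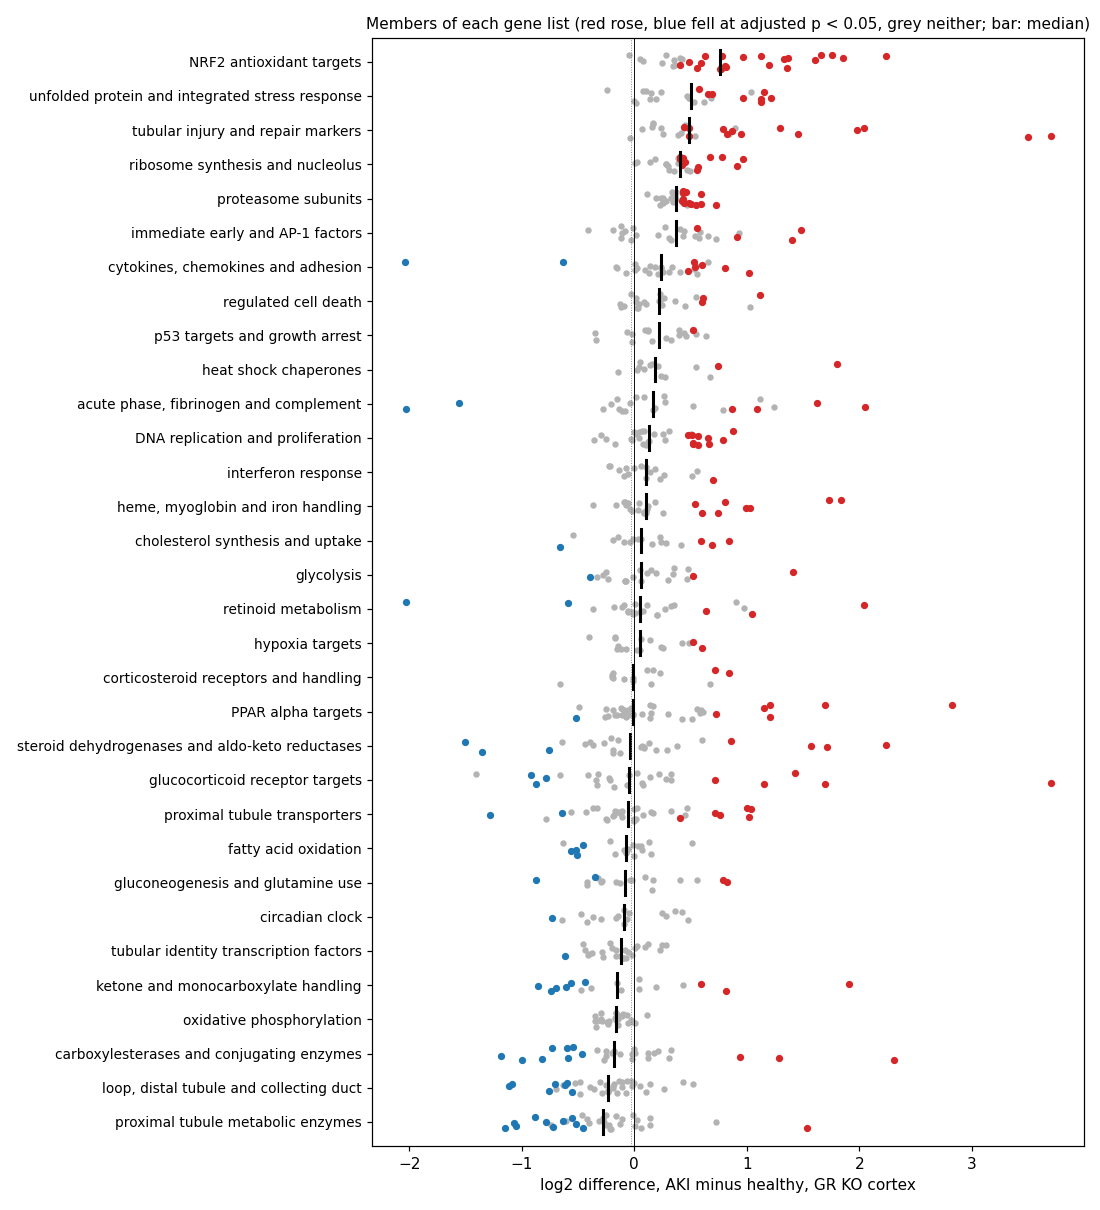
Log2 difference, AKI minus healthy, of every measured member of 32 gene lists in GR KO cortex, sorted by list median. Red points rose and blue points fell at an adjusted p under 0.05, grey points did not pass, the black bar is the list median and the dotted line the median of all genes, -0.03. On all arrays, as plotted, the NRF2 list has the highest median, 0.76, with 21 red points and no blue one, and the enzymes of the proximal tubule the lowest, -0.27.

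Antioxidant genes under NRF2 had the highest share of risers of the lists on all arrays. Of 31 measured members 21 rose and none fell, with a median difference of 0.76, beside 3.29% of all genes and a median of -0.03. Without healthy replicate 1, 16 rose and the median was 0.66, and the injury genes of the tubule then had the higher share, 16 of 27 with a median of 0.67. Without AKI replicate 1, 13 of the antioxidant genes rose. Nqo1, a quinone reductase, read 11.13, 10.80 and 10.83 after AKI and 9.48, 9.11 and 9.20 in healthy cortex, a 3.16-fold rise (difference 1.66, SE 0.13, adjusted p = 2.83e-05). Every injured array was above every healthy one, healthy replicate 1 included. Gsta4, which conjugates lipid peroxidation products to glutathione, read 11.62, 11.54 and 11.43 against 10.20, 9.95 and 9.62 (difference 1.61, SE 0.13, adjusted p = 3.46e-05). Its groups were again well apart. Gstp1, another glutathione transferase, rose by 1.19 (SE 0.09), and Pgd, the second oxidative enzyme of the pentose phosphate pathway that supplies NADPH, by 1.37 (SE 0.11), each with an adjusted p of 2.83e-05.

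Others of this group rose further. Akr1b8, an aldo-keto reductase, read 8.88, 8.85 and 8.0 after AKI and 6.62, 6.28 and 6.13 in healthy cortex (difference 2.23, SE 0.21, adjusted p = 6.73e-05). AKI replicate 3 was the lowest of the injured arrays. Srxn1, sulfiredoxin, which restores oxidised peroxiredoxins, read 11.07, 10.40 and 10.19 against 9.02, 8.73 and 8.64 (difference 1.76, SE 0.19, adjusted p = 0.000207). Slc7a11, the cystine importer that feeds glutathione synthesis, read 7.78, 6.44 and 6.09 against 4.97, 4.78 and 4.99 (difference 1.86, SE 0.35, adjusted p = 0.00799). The healthy arrays of Slc7a11 lay close together and the injured arrays were widely spread, with AKI replicate 1 at the top. Thioredoxin reductase, Txnrd1, rose by 0.77 (SE 0.15, adjusted p = 0.00811) and was not called without AKI replicate 1 (adjusted p = 0.0531). The export pumps Abcc4 and Abcc2 rose by 1.13 and 0.76 (adjusted p = 0.000207 and 0.00357).

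Promoters of 4 lists, the NRF2, unfolded protein, DNA replication and GR target lists, were read from RefSeq on build GRCm38.p6, as the 250 bases before to 50 bases after the start of each gene. A promoter was given for 15614 of the 19938 genes. The core of the antioxidant response element, the site of NRF2, was searched as TGACNNNGC on both strands and found in 11 of 26 NRF2 list promoters (42.3%) and in 15.2% of all promoters, beside 7 of 23 of the unfolded protein list (30.4%), 6 of 25 of the GR target list (24.0%) and 4 of 22 of the replication list (18.2%). The element of endoplasmic reticulum stress, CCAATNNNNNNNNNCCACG, was found in 3 of 23 promoters of the unfolded protein list (13.0%; Creld2, Hspa5 and Hsp90b1) and in 0.134% of all. The E2F-type letters TTTCGCGC were found in 4 of 22 promoters of the DNA replication list (18.2%; Mcm5, Mcm6, Mcm7 and Cdk1) and in 0.519% of all. Other motifs searched were TGAGTCA of AP-1, in 6 of 26 NRF2 list promoters (23.1%) and 5.41% of all, the box TGATTGGC of NF-Y, in 8 of 22 replication promoters (36.4%), 5 of 23 unfolded protein promoters (21.7%) and 5.09% of all, and the glucocorticoid response element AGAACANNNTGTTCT, in 1 of 25 promoters of the GR target list (4.0%; Sgk1) and 0.0128% of all. The heat shock element GAANNTTCNNGAA and the cyclic AMP element TGACGTCA stood in 0.564% and 2.72% of all promoters. The AP-1 letters can lie inside the antioxidant core, so a promoter may be counted for both. A match describes letters and not a bound site, and of the genes named with one Hspa5, Hsp90b1, Mcm7, Cdk1 and Sgk1 did not pass (adjusted p = 0.0609, 0.102, 0.194, 0.916 and 0.853). One promoter per list is printed, chosen after the search, with the matching letters in capitals, for Txnrd1 at chr10:82858956-82859255, Creld2 at chr15:88819396-88819695 and Mcm5 at chr8:75109259-75109558, all on the plus strand of the genome. The Txnrd1 and Creld2 matches read on the minus strand and begin 92 and 126 bases before the start, and the Mcm5 match reads on the plus strand and begins 153 bases before it.
Txnrd1: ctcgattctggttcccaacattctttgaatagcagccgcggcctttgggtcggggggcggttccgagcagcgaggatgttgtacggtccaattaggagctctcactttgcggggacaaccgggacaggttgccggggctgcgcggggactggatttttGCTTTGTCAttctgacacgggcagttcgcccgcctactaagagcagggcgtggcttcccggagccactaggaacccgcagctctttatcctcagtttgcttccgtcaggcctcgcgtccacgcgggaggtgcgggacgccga
Creld2: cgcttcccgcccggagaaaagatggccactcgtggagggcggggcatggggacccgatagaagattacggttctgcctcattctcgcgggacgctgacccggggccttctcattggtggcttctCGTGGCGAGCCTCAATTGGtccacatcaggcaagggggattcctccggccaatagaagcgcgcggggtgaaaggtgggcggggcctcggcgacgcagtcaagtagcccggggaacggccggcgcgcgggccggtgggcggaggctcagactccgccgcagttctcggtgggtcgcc
Mcm5: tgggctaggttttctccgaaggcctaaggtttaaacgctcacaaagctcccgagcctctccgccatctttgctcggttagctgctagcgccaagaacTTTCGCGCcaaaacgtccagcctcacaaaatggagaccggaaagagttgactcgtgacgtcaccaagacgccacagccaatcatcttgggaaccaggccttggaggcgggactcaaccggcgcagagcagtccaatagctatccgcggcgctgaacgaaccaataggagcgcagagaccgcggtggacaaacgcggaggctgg

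Genes of heme breakdown and iron handling rose in part. Of 27 measured members 8 rose and none fell (median 0.10), 6 rose and 1 fell without healthy replicate 1, and 4 rose without AKI replicate 1. Hmox1, heme oxygenase 1, which opens the heme ring, read 11.66, 11.11 and 10.65 after AKI and 9.41, 9.10 and 9.72 in healthy cortex (difference 1.73, SE 0.21, adjusted p = 0.000395). Blvrb, biliverdin reductase B, which reduces flavins and biliverdin, read 11.12, 10.54 and 10.76 against 8.94, 9.32 and 8.65 (difference 1.83, SE 0.22, adjusted p = 0.000385). Among the injured arrays AKI replicate 1 read highest for both genes. Ftl1, the ferritin light chain that stores iron, rose by 0.60 (SE 0.11, adjusted p = 0.00799), while Fth1, the heavy chain, differed by 0.11 (SE 0.09, adjusted p = 0.545). Alas1, the first enzyme of heme synthesis, rose by 1.03 (SE 0.17, adjusted p = 0.00391) and Slc48a1, a heme transporter, by 0.74 (SE 0.12, adjusted p = 0.00282). Tfrc, the transferrin receptor, read 9.70, 9.70 and 9.52 against 8.91, 8.25 and 8.77 (difference 0.99, SE 0.19, adjusted p = 0.00936). Flvcr1, a heme exporter, and Slc40a1, the iron exporter ferroportin, rose by 0.80 and 0.54 on all arrays but were not called without healthy replicate 1 (adjusted p = 0.0676 and 0.108). Those 2 genes, Ftl1 and Tfrc also missed the threshold without AKI replicate 1 (adjusted p = 0.0864 for Flvcr1, 0.16 for Slc40a1, 0.0563 for Ftl1 and 0.057 for Tfrc).

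The injury and repair genes of the tubule rose in GR KO cortex, 13 of 27 with none lower (median 0.48), 16 without healthy replicate 1 (median 0.67) and 9 without AKI replicate 1. Lcn2, an iron-chelator binding protein also known as NGAL, had the largest rise of the genes called, from 9.94, 6.99 and 7.18 to 12.11, 12.03 and 11.08 (13.0-fold, difference 3.70, SE 0.55, adjusted p = 0.00175). Without healthy replicate 1 its difference was 4.66 (adjusted p = 3.33e-06). Havcr1, the phosphatidylserine receptor KIM-1, read 10.75, 11.11 and 9.53 after AKI and 8.11, 6.90 and 5.87 in healthy cortex (11.3-fold, difference 3.50, SE 0.46, adjusted p = 0.000791), and its healthy arrays were widely spread. Tnfrsf12a, the receptor of the cytokine TWEAK, read 10.82, 10.25 and 9.86 against 8.25, 8.0 and 8.73 (difference 1.98, SE 0.21, adjusted p = 0.000207). Timp1, an inhibitor of matrix metalloproteases, read 8.25, 8.51 and 6.83 against 5.90, 5.97 and 5.60 (difference 2.04, SE 0.30, adjusted p = 0.00185). AKI replicate 3 was the lowest injured array for all 4 genes.

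Further injury genes moved less. Krt20, a keratin of injured tubule cells, read 7.47, 7.46 and 6.60 against 6.46, 5.24 and 5.45 (difference 1.46, SE 0.28, adjusted p = 0.00777), so that AKI replicate 3 lay only just above healthy replicate 1, and without AKI replicate 1 it was not called (adjusted p = 0.0581). Plaur, the urokinase receptor, rose by 1.30 (SE 0.23, adjusted p = 0.00603) and Anxa3 by 0.95 (SE 0.16, adjusted p = 0.00372). Cp, ceruloplasmin, a member of the acute phase list, rose by 0.87 (SE 0.14, adjusted p = 0.00391). Sox9, a transcription factor of regenerating tubule cells, read 7.17, 7.04 and 6.83 after AKI and 6.74, 6.84 and 6.96 in healthy cortex. Its groups overlapped, and the difference was 0.17 (SE 0.12, adjusted p = 0.509).

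**Figure D3:**
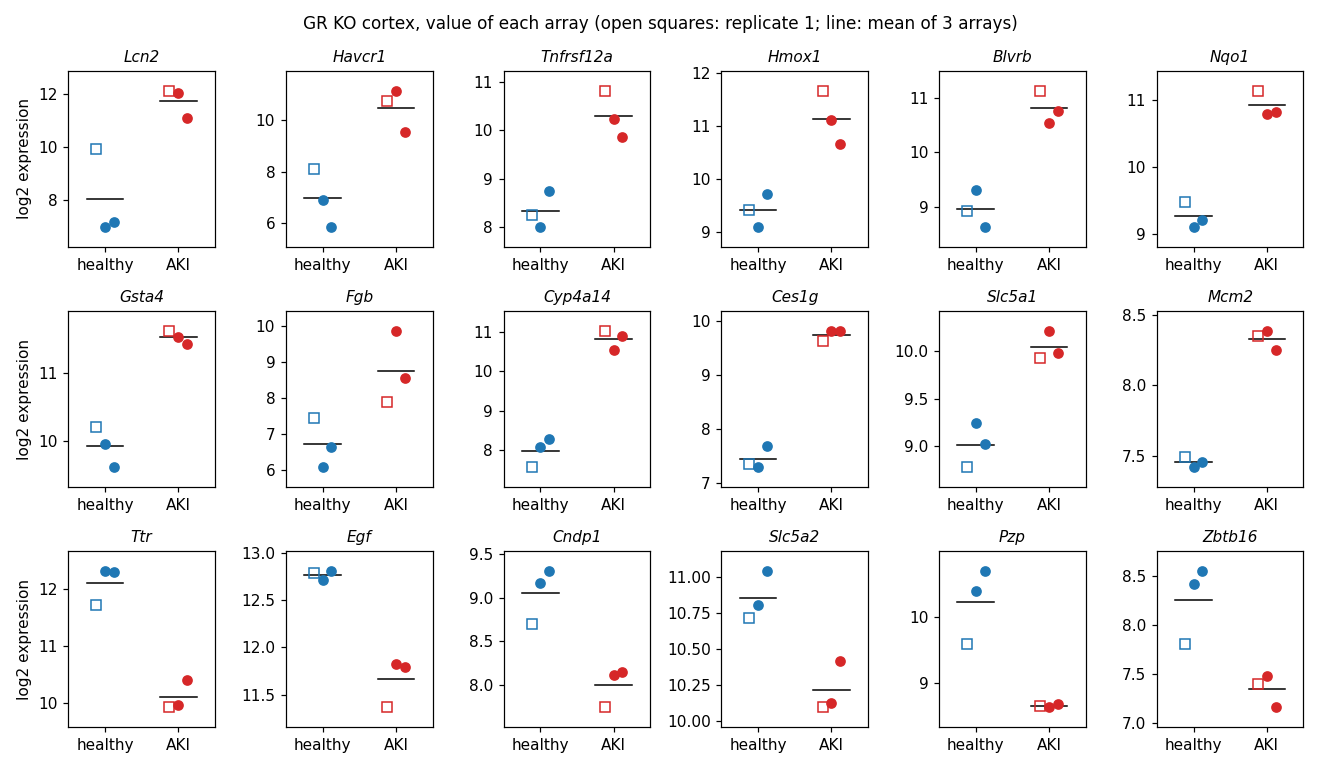
Log2 expression (vertical axes, scaled per gene) of 18 genes on the 3 healthy and 3 AKI arrays of GR KO cortex. Each symbol is 1 array, squares are replicate 1, and the line is the group mean. Healthy replicate 1 lies above its group for Lcn2, at 9.94, and below it for Pzp, at 9.59, while the groups of Nqo1, Ces1g, Mcm2 and Ttr lie clear of each other.

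Stress of the endoplasmic reticulum and amino acid shortage share a program in which 8 of 24 measured genes rose and none fell (median 0.51), 6 rose without healthy replicate 1 and 3 without AKI replicate 1. Xbp1, a transcription factor of the unfolded protein response, read 11.82, 11.69 and 11.67 after AKI and 10.52, 10.24 and 10.95 in healthy cortex (difference 1.16, SE 0.16, adjusted p = 0.00141). Phgdh, the first enzyme of serine synthesis, read 8.0, 7.93 and 8.18 against 6.85, 6.89 and 7.0 (difference 1.12, SE 0.12, adjusted p = 0.000208). Asns, asparagine synthetase, rose by 1.21 (SE 0.21, adjusted p = 0.00442) and Sdf2l1, a chaperone of the reticulum, by 1.12 (SE 0.23, adjusted p = 0.0124). Creld2, whose promoter is printed above, rose by 0.96 (SE 0.22, adjusted p = 0.02) and was at an adjusted p of 0.0502 without healthy replicate 1. The transcription factor genes Atf4, Ddit3 and Atf3 of the integrated stress response differed by 0.19, 0.49 and 1.04 and did not pass (adjusted p = 0.439, 0.175 and 0.0712). Sdf2l1 and Creld2 were not called without AKI replicate 1 (adjusted p = 0.084 and 0.126).

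Heat shock genes were called for the small proteins only among 14 measured, 2 of which rose. Hspb1, which holds unfolded proteins in solution, read 10.51, 9.96 and 9.38 after AKI and 8.51, 7.83 and 8.10 in healthy cortex (difference 1.80, SE 0.24, adjusted p = 0.000927). Hspb8 rose by 0.75 (SE 0.11, adjusted p = 0.00226). Hspa1a, the inducible 70-kilodalton chaperone, read 8.63, 8.93 and 8.56 against 8.43, 8.11 and 9.14, with overlapping groups and a difference of 0.14 (SE 0.22, adjusted p = 0.793). Of 30 proteasome subunits all had a positive difference and 12 rose (median 0.37), with Psmd14, a deubiquitinase of the lid, highest at 0.73 (SE 0.13, adjusted p = 0.00579). That count was 7 without healthy replicate 1 and 1 without AKI replicate 1. Among 25 genes of ribosome synthesis 11 rose and none fell (median 0.41), 5 without healthy replicate 1 and 3 without AKI replicate 1. Nop56, part of the machinery that methylates ribosomal RNA, read 9.68, 9.48 and 9.34 against 8.38, 8.45 and 8.77 (difference 0.97, SE 0.12, adjusted p = 0.000604), and its partner Nop58 rose by 0.91 (SE 0.14, adjusted p = 0.00243).

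Of 26 immediate early and AP-1 genes 4 rose, which were Fosl1, Myc, Nr4a1 and Egr2, and none fell (median 0.37). Fosl1, an AP-1 subunit, read 8.66, 7.84 and 7.60 after AKI and 6.83, 6.54 and 6.29 in healthy cortex (difference 1.48, SE 0.22, adjusted p = 0.00219). Myc rose by 1.40 (SE 0.32, adjusted p = 0.0213), while Nr4a1 and Egr2 were not called without healthy replicate 1 (adjusted p = 0.0534 and 0.0668). Among 23 genes of regulated cell death 3 rose: Mlkl, the executioner of necroptosis, by 1.11 (SE 0.19, adjusted p = 0.00468), Acsl4, which builds the lipids oxidised in ferroptosis, by 0.60 (SE 0.11, adjusted p = 0.00777), and Bak1, a pore-former of apoptosis, by 0.61 (SE 0.13, adjusted p = 0.0176). Of 18 p53 targets only Phlda3 rose, by 0.52 (SE 0.13, adjusted p = 0.0288), and none did without healthy replicate 1 (adjusted p of Phlda3 0.0752). The share of risers over all genes was 3.29%. Of 17 hypoxia targets 2 rose, Slc2a1 (0.52, adjusted p = 0.0191) and Adm (0.60, adjusted p = 0.0253), the latter not without healthy replicate 1 (adjusted p = 0.0877). Without healthy replicate 1 the immediate early list had 2 risers, and without AKI replicate 1 it had 1. Except for Fosl1, Mlkl and Acsl4, none of the genes named here was called without AKI replicate 1 (adjusted p between 0.0821, for Slc2a1, and 0.159, for Adm).

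Genes of DNA replication rose, 10 of 31 with none lower (median 0.13), 8 without healthy replicate 1 and 6 without AKI replicate 1. Mcm2, a subunit of the helicase loaded at origins, read 8.35, 8.39 and 8.25 after AKI and 7.49, 7.42 and 7.45 in healthy cortex (difference 0.88, SE 0.09, adjusted p = 0.000207). Mcm5, another subunit of that ring, read 7.57, 7.63 and 7.65 against 6.79, 6.84 and 6.85 (difference 0.79, SE 0.10, adjusted p = 0.000649). In both genes the arrays of a group lay close together and the groups were far apart, which the choice by smallest p favours. Mcm4, Mcm3 and Mcm6 rose by 0.65, 0.67 and 0.53 (adjusted p = 0.00575, 0.00815 and 0.0354), the last not without healthy replicate 1 (0.103). Pcna, the sliding clamp, read 10.23, 10.19 and 10.23 against 9.71, 9.72 and 9.67 (difference 0.52, SE 0.09, adjusted p = 0.00655). Rrm2 and Rrm1, the subunits of ribonucleotide reductase, rose by 0.48 and 0.51 (adjusted p = 0.0148 and 0.0373). Mcm3, Mcm6 and Rrm1 were not called without AKI replicate 1 (adjusted p = 0.0595, 0.172 and 0.18). Mki67 and Top2a, markers of proliferating cells, did not pass: Mki67 read 6.06, 6.78 and 6.12 against 6.07, 6.09 and 6.28 (difference 0.17, SE 0.20, adjusted p = 0.701), and Top2a differed by 0.09 (SE 0.12, adjusted p = 0.771). The mean level of the 31 genes was 6.96, 6.99 and 7.01 after AKI and 6.77, 6.74 and 6.75 in healthy cortex.

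Transporters of the proximal tubule changed both ways, 6 of 34 higher and 2 lower (median -0.06), and without healthy replicate 1 the counts were 3 and 3 (median -0.22). Slc5a1, the sodium glucose cotransporter SGLT1, read 9.93, 10.21 and 9.99 after AKI and 8.78, 9.24 and 9.02 in healthy cortex (difference 1.03, SE 0.17, adjusted p = 0.00337). Slc5a2, the early tubule's SGLT2, went the other way, with 10.10, 10.12 and 10.42 against 10.72, 10.81 and 11.04 (difference -0.64, SE 0.13, adjusted p = 0.0123). The groups did not overlap in either gene. Slco1a1, an organic anion carrier, read 9.43, 9.52 and 9.37 against 10.03, 10.86 and 11.29 (difference -1.28, SE 0.24, adjusted p = 0.00762), with healthy replicate 1 the lowest of its group, and without that array the difference was -1.63. Slc13a1, the sulfate carrier, and Slc20a1, a phosphate carrier, rose by 1.00 and 1.02 on all arrays (adjusted p = 0.0231 and 0.0154) but were not called without healthy replicate 1 (0.0832 and 0.072). These and Slc5a2 were also not called without AKI replicate 1 (adjusted p = 0.0856, 0.104 and 0.0842 for Slc13a1, Slc20a1 and Slc5a2). Without AKI replicate 1 the counts were 2 higher and 1 lower. Healthy replicate 1 had the lowest mean over the 34 transporters, 10.76, beside 11.17 and 11.25 in the other healthy arrays and 11.02 to 11.11 in the injured arrays.

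Metabolic enzymes of the proximal tubule fell more often than they rose, 10 of 35 against 1 (median -0.27), 10 against 1 without healthy replicate 1 (median -0.42) and 5 against 1 without AKI replicate 1. Cyp7b1, an oxysterol hydroxylase, read 9.97, 10.21 and 9.93 after AKI and 11.18, 11.53 and 10.87 in healthy cortex (difference -1.15, SE 0.15, adjusted p = 0.000612). Cndp1, which splits carnosine, read 7.75, 8.11 and 8.15 against 8.70, 9.17 and 9.30 (difference -1.05, SE 0.18, adjusted p = 0.00397). Hpd of tyrosine breakdown, Mep1b, a brush border protease, and Haao of tryptophan breakdown had differences of -1.07, -0.88 and -0.63 (adjusted p = 0.0106, 0.00422 and 0.00483). The member that rose was Kynu, kynureninase, which acts just before Haao, with 8.79, 8.81 and 9.12 against 8.08, 7.48 and 6.55 (difference 1.54, SE 0.29, adjusted p = 0.00778). Its healthy arrays were widely spread. Gatm, the first enzyme of creatine synthesis, read 12.51, 12.81 and 12.82 against 12.74, 13.07 and 12.95 (difference -0.21, SE 0.21, adjusted p = 0.644).

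Of 39 genes of the loop of Henle, distal tubule and collecting duct 7 fell and none rose (median -0.23), without healthy replicate 1 there were 4 lower and 1 higher, and without AKI replicate 1 there was 1 lower. Egf, the growth factor made in the thick ascending limb and distal convoluted tubule, read 11.37, 11.83 and 11.79 after AKI and 12.79, 12.71 and 12.81 in healthy cortex (difference -1.11, SE 0.13, adjusted p = 0.000419). The healthy arrays lay close together, well above every injured array. Trpm6, the magnesium channel, read 6.71, 7.19 and 6.75 against 7.63, 7.68 and 7.61 (difference -0.75, SE 0.14, adjusted p = 0.00774). Slc26a4, the chloride exchanger pendrin of intercalated cells, had a difference of -0.71 (SE 0.14, adjusted p = 0.0097). Pvalb and Calb1, calcium-binding proteins of the distal convoluted tubule, had differences of -1.09 and -0.55 (adjusted p = 0.0228 and 0.0361) and were not called without healthy replicate 1 (0.0617 and 0.102). Of 26 transcription factors of tubular identity 1 fell, Irx1 (difference -0.62, SE 0.13, adjusted p = 0.0156), and none passed without healthy replicate 1. Among all genes 1.35% fell. Of the genes named here Egf alone was called without AKI replicate 1 (adjusted p = 0.00255), and the others lay between 0.0591, for Trpm6, and 0.202, for Calb1.

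Targets of PPAR alpha, the receptor of fatty acids, included 6 risers and 1 gene that fell among 37 (median -0.01), 3 and 1 without healthy replicate 1, and 2 risers without AKI replicate 1. Among all genes 3.29% rose and 1.35% fell on all arrays. Cyp4a14, a fatty acid hydroxylase, had the third largest rise of the genes called, with 11.01, 10.53 and 10.88 after AKI and 7.57, 8.09 and 8.29 in healthy cortex (difference 2.82, SE 0.56, adjusted p = 0.0109). It was not called without healthy replicate 1 (adjusted p = 0.0549) or without AKI replicate 1 (0.0632). Pdk4, which blocks pyruvate entry into the citrate cycle, read 10.15, 9.46 and 9.07 against 7.74, 8.14 and 7.73 (difference 1.69, SE 0.25, adjusted p = 0.00166). Fabp1, a fatty acid binding protein, read 5.98, 6.24 and 6.46 against 5.07, 5.07 and 4.92 (difference 1.21, SE 0.19, adjusted p = 0.00302). Acadm, the dehydrogenase of medium-chain fatty acids, read 12.29, 12.45 and 12.42 against 12.90, 12.91 and 12.89 (difference -0.52, SE 0.11, adjusted p = 0.0121). Acadm was not called without AKI replicate 1 (adjusted p = 0.0856). In the list of fatty acid oxidation 4 of 19 genes fell, Acadm among them, 2 without healthy replicate 1 and none without AKI replicate 1. None of 26 genes of oxidative phosphorylation passed, although 24 of them had a negative difference (median -0.16).

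Ketone and monocarboxylate genes split, 3 of 17 higher and 6 lower (median -0.15), 2 and 5 without healthy replicate 1, and 1 and 2 without AKI replicate 1. Slc16a6, a carrier of this family that exports ketone bodies from liver cells, read 9.61, 9.13 and 9.06 after AKI and 7.10, 7.39 and 7.60 in healthy cortex (difference 1.90, SE 0.20, adjusted p = 0.000207). The ketone enzymes Bdh2 and Oxct1 had differences of -0.69 and -0.56 (adjusted p = 0.00454 and 0.00581), and Slc5a8, a lactate carrier, of -0.74 (adjusted p = 0.0156). Slc16a5, another member of the family, rose by 0.59 (SE 0.12, adjusted p = 0.0136). Pklr, the liver and kidney form of pyruvate kinase, read 10.35, 10.27 and 10.06 against 8.45, 8.96 and 9.03 (difference 1.41, SE 0.24, adjusted p = 0.00422), and it was 1 of 2 risers among 21 glycolysis genes, 1 of which fell. Of 18 genes of gluconeogenesis and glutamine use 2 rose, Fbp2 (0.83, adjusted p = 0.00922) and Gpt2 (0.79, adjusted p = 0.0225), and 2 fell, of which Klf15, a transcription factor under GR control, had the difference -0.88 (SE 0.16, adjusted p = 0.00603). In cholesterol synthesis Msmo1, Fdft1 and Sqle rose by 0.84, 0.59 and 0.69 (adjusted p = 0.00219, 0.00762 and 0.00989) and 1 of 17 genes fell. Without healthy replicate 1 the gluconeogenesis list had 2 genes higher and 1 lower, and the glycolysis list 2 higher and none lower. Without AKI replicate 1 the gluconeogenesis list had 1 gene higher and 1 lower and the glycolysis list 1 higher. Slc5a8, Slc16a5 and Gpt2 were not called without AKI replicate 1 (adjusted p = 0.103, 0.0625 and 0.118).

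Steroid, retinoid and conjugating enzymes gave some of the largest changes, in both directions within 1 family. Of 26 steroid dehydrogenases and aldo-keto reductases 4 rose and 3 fell (median -0.04), 5 and 3 without healthy replicate 1. Akr1c12 read 8.05, 8.14 and 8.02 after AKI and 6.40, 6.42 and 6.26 in healthy cortex (difference 1.71, SE 0.19, adjusted p = 0.000207). Akr1c18, an enzyme that inactivates progesterone, read 6.40, 6.62 and 6.02 against 8.07, 7.86 and 7.62 (difference -1.51, SE 0.26, adjusted p = 0.00435). Akr1c13 and Akr1c20 rose by 1.57 and 0.86 (adjusted p = 0.000515 and 0.00219), and Akr1c14 had a difference of -1.36 (adjusted p = 0.00726). These paralogs are close in sequence, so probes may be shared between their transcripts. In the retinoid list 3 of 25 rose and 2 fell with and without healthy replicate 1. Aldh1a2, which makes retinoic acid, read 9.63, 9.65 and 8.52 against 7.64, 6.96 and 7.09 (difference 2.04, SE 0.27, adjusted p = 0.000755). Ttr, transthyretin, a carrier of thyroid hormone and of the retinol-binding protein, read 9.92, 9.95 and 10.40 against 11.73, 12.32 and 12.31 (difference -2.03, SE 0.18, adjusted p = 6.00e-05), while Rbp4, its partner, rose by 1.05 (SE 0.20, adjusted p = 0.00778). Rbp4 was not called without AKI replicate 1 (adjusted p = 0.0585).

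Of 29 carboxylesterases and conjugating enzymes 3 rose and 8 fell (median -0.18), 3 and 6 without healthy replicate 1, and 2 and 2 without AKI replicate 1. Ces1g, a carboxylesterase of lipid metabolism, read 9.63, 9.82 and 9.82 after AKI and 7.36, 7.30 and 7.68 in healthy cortex, a 4.96-fold rise (difference 2.31, SE 0.23, adjusted p = 0.000156). The injured arrays lay close together. Ugt2b34, a glucuronosyltransferase, read 9.93, 9.24 and 9.25 against 7.97, 8.48 and 8.12 (difference 1.28, SE 0.23, adjusted p = 0.00652). Its paralog Ugt2b37 had a difference of -0.99 (SE 0.17, adjusted p = 0.00384). Sult1d1, a sulfotransferase, read 10.82, 11.13 and 10.97 against 11.997, 12.36 and 12.12 (difference -1.18, SE 0.14, adjusted p = 0.000284). Upp2, uridine phosphorylase 2, and Dio1, which activates thyroid hormone, were among the genes that fell most, with differences of -1.64 and -1.19 (adjusted p = 0.000207 and 0.00219).

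Acute phase and complement genes included 4 that rose and 2 that fell among 23 (median 0.16), with and without healthy replicate 1. Fgb, the beta chain of fibrinogen, read 7.89, 9.86 and 8.55 after AKI and 7.44, 6.08 and 6.63 in healthy cortex (difference 2.05, SE 0.39, adjusted p = 0.00807). Its injured arrays were uneven, AKI replicate 1 lay just above healthy replicate 1, and the other chains Fga and Fgg did not pass (differences 1.12 and 1.24, adjusted p = 0.0608 and 0.226). Lrg1, a secreted acute phase glycoprotein, read 9.10, 9.33 and 7.91 against 7.23, 6.93 and 7.31 (difference 1.62, SE 0.28, adjusted p = 0.00521). Serpina3n, a protease inhibitor, rose by 1.09 (SE 0.15, adjusted p = 0.00132), and Cp, given above, was the other riser. Pzp, a protease inhibitor of the macroglobulin family, fell, with 8.65, 8.64 and 8.69 against 9.59, 10.39 and 10.68 (difference -1.56, SE 0.20, adjusted p = 0.000685), and healthy replicate 1 was again the lowest of its group. Of 29 cytokine, chemokine and adhesion genes 6 rose and 2 fell (median 0.24), 4 and 1 without healthy replicate 1 and none without AKI replicate 1. Osmr, the oncostatin M receptor, rose by 1.02 (SE 0.20, adjusted p = 0.00994), Il33, an alarmin, by 0.81 (SE 0.16, adjusted p = 0.0122), and Cx3cl1, fractalkine, by 0.48 (SE 0.09, adjusted p = 0.00952). Ccl28, an epithelial chemokine, read 7.98, 8.52 and 7.28 against 9.14, 10.17 and 10.59 (difference -2.04, SE 0.47, adjusted p = 0.0247). Cxcl1, a neutrophil attractant, differed by 0.14 (SE 0.14, adjusted p = 0.639), and of 17 interferon-response genes 1 rose, Ifitm3 (0.70, adjusted p = 0.0426, and 0.154 without healthy replicate 1). Among all genes 3.29% rose and 1.35% fell. Osmr, Il33, Cx3cl1, Ccl28 and Ifitm3 were not called without AKI replicate 1 (adjusted p = 0.0716, 0.0787, 0.0677, 0.0996 and 0.183).

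Markers of other cell types were read beside these groups. The background for their counts is again 3.29% of all genes higher and 1.35% lower. Of 16 neutrophil markers 1 passed, Lcn2, which injured tubules also make, and S100a8 and S100a9 differed by 0.55 and 0.55 (adjusted p = 0.15 and 0.107). The mean of the neutrophil list, which includes Lcn2, lay between 5.76 and 5.95 on the injured arrays and between 5.44 and 5.65 on the healthy ones. The median difference of that list was 0.07, with 12 members positive and 4 negative, so the large difference of Lcn2 weighs on the means. Of 17 monocyte and macrophage markers 2 rose: Cd68, a lysosomal protein, with 8.63, 8.70 and 8.02 after AKI and 7.06, 7.42 and 7.03 in healthy cortex (difference 1.28, SE 0.17, adjusted p = 0.000762), and Cd14, a coreceptor of endotoxin, with 8.63, 8.82 and 7.56 against 7.02, 6.76 and 7.06 (difference 1.39, SE 0.23, adjusted p = 0.00435). The macrophage markers Adgre1 and Csf1r had differences of 0.12 and -0.27 (adjusted p = 0.754 and 0.256), and the list mean was 6.86 to 7.13 on injured and 6.80 to 6.98 on healthy arrays. The median difference of this list was -0.10, with 8 members positive and 9 negative. Of 14 markers of fibroblasts, mural cells and matrix 2 rose, Pdgfrb, the receptor of pericytes, by 0.87 (SE 0.12, adjusted p = 0.000832), and Acta2, smooth muscle actin, by 0.46 (SE 0.12, adjusted p = 0.0448, and 0.0682 without healthy replicate 1). Acta2 was likewise not called without AKI replicate 1 (0.146). The median difference of these 14 markers was 0.05, with 8 positive and 6 negative. No marker passed among 14 of lymphocytes, 15 of endothelium, 8 of podocytes, 11 of skeletal muscle, 10 of the adrenal gland, 6 of adipocytes and 3 of red blood cells, though 1 endothelial marker fell without healthy replicate 1. The adipocyte mean was 7.17 on AKI replicate 2 and between 6.19 and 6.43 on the other 5 GR KO arrays, and the red cell mean was 7.17 to 7.35 on injured and 6.91 to 7.13 on healthy arrays. Of 10 proximal tubule markers 2 fell (median -0.16), and the list mean was 12.1, 12.2 and 12.2 against 12.1, 12.4 and 12.6. The part of these cell types in the results above was not tested, and the scale has no zero at which a marker could be called absent.

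Known GR targets were called in both directions in this cortex, whose tubules carry the deletion, 5 of 27 higher and 3 lower (median -0.05), 4 and 4 without healthy replicate 1, and 3 and 2 without AKI replicate 1. Among all genes 3.29% rose and 1.35% fell on all arrays. Mt2, a metallothionein, read 13.21, 12.86 and 12.51 after AKI and 11.62, 11.56 and 11.13 in healthy cortex (difference 1.42, SE 0.17, adjusted p = 0.000343), and Mt1 rose by 0.72 (SE 0.14, adjusted p = 0.00913). Pdk4 and Lcn2, given above, belong to this list too. Fam107a, an actin-associated stress gene, and Zbtb16, a zinc finger transcription factor, fell, with differences of -0.78 and -0.91 (adjusted p = 0.00652 and 0.0396), as did Klf15, given above. Zbtb16 read 7.39, 7.48 and 7.16 against 7.81, 8.42 and 8.55, with healthy replicate 1 nearest to the injured arrays. Bcl6, a repressor, was called only without healthy replicate 1, which at 7.35 lay below the 9.41 and 9.20 of its group (difference -2.06, adjusted p = 0.0342, against -1.41 and 0.157 on all arrays). Fkbp5, Sgk1 and Per1, which are used as readouts of receptor activity, differed by -0.66, 0.07 and -0.05 and did not pass (adjusted p = 0.184, 0.853 and 0.894). Of 15 genes of corticosteroid receptors and handling 2 rose, the efflux pump Abcb1a by 0.84 (SE 0.13, adjusted p = 0.0021) and its paralog Abcb1b. Of 17 clock genes Tef, a clock output factor, fell (difference -0.73, SE 0.14, adjusted p = 0.00777), and 2 fell without healthy replicate 1. Mt1, Zbtb16, Abcb1b and Tef were not called without AKI replicate 1 (adjusted p = 0.067, 0.136, 0.197 and 0.0603).

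The GR KO response was then set beside that of control cortex, in which 5715 genes were called (28.7%), 2708 higher (13.6%) and 3007 lower (15.1%), and the difference of the responses was tested for each gene. The 2 responses share no array. Of the 926 genes called in GR KO cortex 731 were called in control cortex in the same direction, 17 in the opposite one and 178 not at all. The responses differed for 2283 genes (11.5%), 1473 with a more positive difference in GR KO cortex (7.39%) and 810 with a more negative one (4.06%), and for 2004 without healthy replicate 1. Among the 519 genes that rose at least 2-fold in control cortex (2.6%) the median difference was 1.37 there and 0.53 in GR KO cortex, where 248 rose and 1 fell. Among the 787 that fell at least 2-fold in control cortex (3.95%) the medians were -1.38 and -0.27, and 154 fell and 2 rose. The response differed for 392 of the first and 699 of the second set. Both sets were chosen for a large control response, so a smaller median in the other genotype is in part fixed by that choice.

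Many injury, stress and acute phase genes rose less in GR KO cortex. Krt20 rose by 1.46 in GR KO and 6.15 in control cortex (difference of responses -4.70, SE 0.39, adjusted p = 1.94e-05). Havcr1 rose by 3.50 and 6.12 (-2.62, SE 0.66, adjusted p = 0.018), and Lcn2 by 3.70 and 5.99, where the difference of -2.29 did not pass (95% interval -3.94 to -0.64, adjusted p = 0.0726). Sox9 differed by 0.17 in GR KO and rose by 2.63 in control cortex (-2.47, SE 0.17, adjusted p = 7.06e-06). Fgb rose by 2.05 and 6.43 (-4.38, SE 0.55, adjusted p = 0.000234), and Hspa1a differed by 0.14 and rose by 2.89 (-2.75, SE 0.32, adjusted p = 0.000131). Of the 27 injury genes 16 had a more negative response in GR KO cortex and none a more positive one, as did 15 of 26 immediate early genes and 13 of 25 genes of ribosome synthesis, again with none more positive. It was more negative for 10 of 24 genes of the unfolded protein list and 6 of 14 heat shock genes, with none more positive. Of the 23 acute phase and complement genes 8 were more negative and 5 more positive.

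Most nephron genes measured had a more positive response in GR KO cortex than in control cortex. Of the 34 proximal tubule transporters 27 fell in control cortex and 2 in GR KO cortex, and the response was more positive in GR KO cortex for 27 and more negative for 1. The response was also more positive for 24 of 35 proximal tubule enzymes and 20 of 39 distal genes. These counts are on all arrays, healthy replicate 1 included. The transporter mean was 10.76, 11.17 and 11.25 in healthy GR KO and 11.44, 11.31 and 11.39 in healthy control cortex, so GR KO cortex started lower. After AKI it was 11.02, 11.10 and 11.11 in GR KO and 10.08, 10.17 and 10.51 in control cortex. The part of the lower start in the smaller fall was not tested. Gatm differed by -0.21 in GR KO and fell by 3.47 in control cortex (difference of responses 3.26, SE 0.29, adjusted p = 3.53e-05). Slc34a1 differed by -0.25 and fell by 1.52 (1.28, SE 0.15, adjusted p = 0.000136). Egf fell in both, with differences of -1.11 and -3.86 (2.75, SE 0.19, adjusted p = 7.06e-06). Hsd3b2, a steroid dehydrogenase, had the largest positive difference of responses among the genes called, -0.64 (adjusted p = 0.124) in GR KO against -4.07 in control cortex (3.43, SE 0.31, adjusted p = 3.68e-05).

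For several antioxidant and heme genes that rose in both genotypes no difference of responses was called. The difference of responses was -0.12 for Nqo1 (1.66 and 1.78, 95% interval -0.50 to 0.26), -0.17 for Gsta4 (1.61 and 1.77, interval -0.58 to 0.24), 0.03 for Gstp1 (1.19 and 1.17, interval -0.25 to 0.31) and 0.04 for Blvrb (1.83 and 1.79, interval -0.62 to 0.70). None of these passed (adjusted p = 0.748, 0.663, 0.934 and 0.961), and the intervals leave room for differences of up to 0.70. Within the same lists Hmox1 rose by 1.73 against 3.77 (-2.04, SE 0.29, adjusted p = 0.000562), Akr1b8 by 2.23 against 4.23 (-1.99, SE 0.29, adjusted p = 0.000601) and Srxn1 by 1.76 against 3.48 (-1.73, SE 0.26, adjusted p = 0.000802). Over the NRF2 list 8 of 31 members had a more negative and 1 a more positive response in GR KO cortex, the latter being Ephx1, an epoxide hydrolase (0.82 against -0.20, difference 1.02, adjusted p = 0.0257), whose rise was not called without healthy replicate 1 (adjusted p = 0.0647). Nor was it called without AKI replicate 1 (adjusted p = 0.102). Over the heme and iron list 6 of 27 members had a more positive and 3 a more negative response in GR KO cortex. Over all genes these shares were 7.39% and 4.06%.

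A smaller set responded more in GR KO than in control cortex. Of the 365 genes called in GR KO cortex whose response differed, 62 had the larger size of response there, 54 that rose and 8 that fell. These 62, out of 19938 genes tested, were picked for that size, so their larger response is by choice. Ces1g rose by 2.31 in GR KO and differed by -0.41 in control cortex (difference of responses 2.72, SE 0.32, adjusted p = 0.000158). Kynu rose by 1.54 against -0.73 (2.26, SE 0.41, adjusted p = 0.00253), Ugt2b34 by 1.28 against -0.31 (1.60, SE 0.33, adjusted p = 0.00594), Slc5a1 by 1.03 against -0.09 (1.12, SE 0.24, adjusted p = 0.0066) and Akr1c20 by 0.86 against -0.22 (1.08, SE 0.19, adjusted p = 0.00178). None of these 5 genes passed in control cortex (adjusted p between 0.08 and 0.80). The helicase genes Mcm2 and Mcm5 rose by 0.88 and 0.79 against 0.29 and 0.17 (differences 0.59 and 0.62, adjusted p = 0.00813 and 0.0117), and 5 of the 31 replication genes had a more positive response in GR KO cortex with none more negative. Sult1d1 and Apoh, a plasma glycoprotein gene, fell further than in control cortex, by 1.18 and 1.18 against differences of -0.47 and -0.04 (differences of responses -0.71 and -1.14, adjusted p = 0.0261 and 0.0411). The fall of Apoh was not called without AKI replicate 1 (adjusted p = 0.0563). Zbtb16 had a difference of -0.91 in GR KO and 1.03 in control cortex (difference of responses -1.94, SE 0.33, adjusted p = 0.00165). Its call in GR KO cortex passed in 1 of the 6 left-out fits, that without healthy replicate 1 (adjusted p = 0.0223), and the highest adjusted p was 0.136, without AKI replicate 1.

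**Figure D4:**
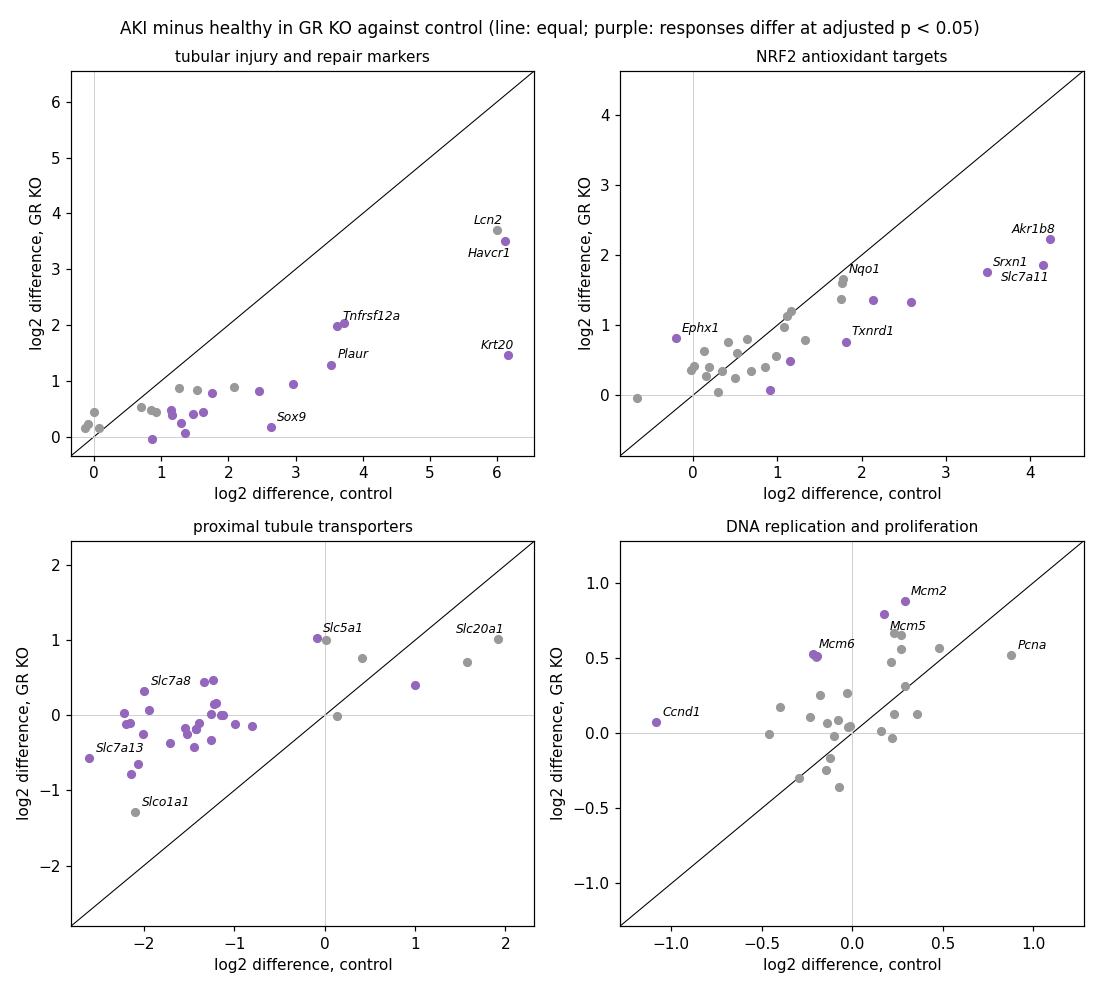
Log2 difference after AKI in GR KO cortex (vertical axis) against that in control cortex (horizontal axis) for the members of 4 gene lists, 1 point per gene, with axes scaled per list. The line marks equal responses, and purple points differ between the genotypes at an adjusted p under 0.05. Injury markers such as Krt20 lie far below the line, Nqo1 lies next to it at 1.66 against 1.78, most transporters lie near 0 on the vertical axis, and Mcm2 lies above the line at 0.88 against 0.29.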

How the data were processed

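Cortex RNA of 12 samples, 3 in each of 4 groups, was amplified, labelled and read on Affymetrix arrays, 1 sample per array. The values the authors deposited are log2 expression values of 35556 probe sets, made with RMA, with affy and oligo named, per the submitters' processing notes, which as used here give no versions. The log base is not stated there and was taken from the range, since the highest value per array was 14.73 to 14.90. RMA equalises arrays, so a shift of most genes in 1 group would be reduced. GEO's platform annotation gave 21789 probe sets 1 symbol, 1621 several and 12146 none. Of the 19938 genes 999 had several probe sets, 19856 matched RefSeq by Entrez ID and 0 symbols needed updating.

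With R 4.3.3 and limma 3.58.1, the 4 group means were fitted over all 12 arrays (lmFit, eBayes; 8 residual and 6.26 prior degrees of freedom), with Benjamini-Hochberg adjustment over 19938 genes and no filter on dim genes. The difference of responses is a contrast of the same fit. The script was tested on simulated data. The gene lists and the comparison itself were chosen with earlier results of these data known. Lists are described by counts and medians, without a set test.

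Genes named were the 20 largest rises and falls whose arrays do not overlap, the 5 members of each list and 3 of each marker list with the smallest p, the 10 most positive and 10 most negative differences of responses, and the 10 clearest responses larger in GR KO than in control cortex, leaving out predicted genes. Not all of these are printed. Of the genes printed 118 follow this rule and 33 were named after their values were seen: Abcc4, Adgre1, Atf3, Atf4, Bcl6, Cdk1, Creld2, Csf1r, Cxcl1, Ddit3, Ephx1, Flvcr1, Fth1, Hsp90b1, Hspa5, Lrp2, Mcm6, Mcm7, Mki67, Mt1, Per1, Plaur, Rrm1, Rrm2, Sgk1, Slc13a1, Slc34a1, Slc40a1, Sox9, Tfrc, Top2a, Txnrd1 and Zbtb16.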

Additional observations from a re-analysis of the deposited data

Results flagged for a closer look

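The response to AKI differed between GR KO and control cortex, by the test of the difference of the responses in the limma fit (adjusted p under 0.05), for the named genes below. Some lay near that threshold, with an adjusted p of 0.0497 for Bak1, 0.0496 for Asns and 0.0469 for Aldh1a2. Each value is the log2 difference after AKI in GR KO cortex minus that in control cortex, each response resting on 3 arrays against 3 and sharing no array with the other. A negative value for a gene that rose means a smaller rise in GR KO cortex, and a positive value for a gene that fell means a smaller fall.

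Among injury, matrix and acute phase genes the difference was -4.92 for Fgg, -4.70 for Krt20, -4.38 for Fgb, -3.30 for Fga, -2.76 for Lrg1, -2.62 for Havcr1, -2.47 for Sox9, -2.24 for Plaur, -2.01 for Anxa3, -1.69 for Timp1, -1.63 for Tnfrsf12a and -1.26 for Serpina3n. For Ttr, also a member of the acute phase list, it was 1.07.

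Among antioxidant, heme, chaperone and stress genes it was -2.75 for Hspa1a, -2.58 for Hspb1, -2.46 for Atf3, -2.30 for Slc7a11, -2.04 for Hmox1, -1.99 for Akr1b8, -1.73 for Srxn1, -1.65 for Ddit3, -1.59 for Mlkl, -1.41 for Mt2, -1.30 for Atf4, -1.24 for Adm, -1.20 for Mt1, -1.18 for Creld2, -1.04 for Txnrd1, -0.95 for Asns, -0.91 for Acsl4, -0.70 for Hspb8, -0.62 for Slc2a1 and -0.62 for Bak1. Ephx1 was the exception among the antioxidant genes, at 1.02.

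Among transcription factors, ribosome synthesis, cytokine and leukocyte genes it was -2.53 for Cd14, -2.41 for Fosl1, -1.94 for Cxcl1, -1.67 for Myc, -1.57 for Cd68, -1.5 for S100a8, -1.21 for S100a9, -1.02 for Osmr, -0.88 for Nop58, -0.76 for Nr4a1 and -0.60 for Nop56, and it was 0.59 for Csf1r, which fell in control cortex.

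Among transporters and other nephron genes it was 2.75 for Egf, 1.60 for Slc5a8, 1.43 for Slc5a2, 1.36 for Lrp2, 1.28 for Slc34a1, 1.12 for Slc5a1, 1.03 for Slc16a5, 0.73 for Slc26a4 and 0.67 for Calb1. Among metabolic, steroid and conjugating enzymes it was 3.43 for Hsd3b2, 3.26 for Gatm, 2.72 for Ces1g, 2.34 for Cndp1, 2.26 for Kynu, 1.60 for Ugt2b34, 1.51 for Mep1b, 1.38 for Akr1c14, 1.19 for Haao, 1.08 for Akr1c20, 1.02 for Hpd, 0.98 for Gpt2, 0.87 for Ugt2b37, 0.82 for Bdh2, 0.79 for Fdft1 and 0.68 for Oxct1 in the positive direction, and -1.89 for Pdk4, -1.24 for Aldh1a2 and -0.71 for Sult1d1 in the negative direction.

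Among helicase and nucleotide genes of DNA replication it was 0.74 for Mcm6, 0.71 for Rrm1, 0.62 for Mcm5 and 0.59 for Mcm2. Among GR targets and clock genes not yet listed it was -1.94 for Zbtb16, -1.40 for Fkbp5 and -0.88 for Sgk1 and, with a positive sign, 1.84 for Fam107a, 1.72 for Tef and 0.92 for Klf15. For Nr3c1 itself it was 0.50, from a level already lower in GR KO cortex, and for Apoh, a secreted plasma glycoprotein, it was -1.14.

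For this section single arrays far from their group were looked for only in groups of 4 or more, and so not in these groups of 3. The position of GR KO healthy replicate 1 apart from its group is described in the results above.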

How the results depend on the processing

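In GR KO cortex the count of called genes was 277 to 920 when each array was left out in turn, against 926 on all arrays. It was 277 without AKI replicate 1, 468 without AKI replicate 2 and 472 without healthy replicate 2. It was 1457 with dim genes left out (10551 genes tested), 3196 with array quality weights and 153 for a change above 1.2-fold. Array weights lower the part of uneven arrays, and the 1.2-fold test asks for more than a change, while the cause of the rest was not tested. With the 6 GR KO arrays alone it was 681, with a mean-variance trend 1167 and over all probe sets 627. For the difference of responses the counts were 1618 to 2263 with arrays left out, against 2283, and 4905 with array quality weights. Without control AKI replicate 1, a setting chosen after seeing the data, the count was 2364, with 1410 higher and 954 lower (59.6% higher). That array also stood apart from its group. It scored 33.8 on the second principal component, against -5.59 and -15.4 for the other control AKI arrays and 11.6 for the next highest array. Every control response and difference of responses on all arrays includes it, and the reason for its position was not tested.

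The share of calls that were higher, 70.8% in GR KO cortex, was 60.2% after quantile and 60.6% after cyclic loess normalization, 56.1% with array weights and 81.0% for a change above 1.2-fold. The share of positive differences of responses, 64.5%, was 53%, 55.9% and 56.4% under the first 3 of these.

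The replicate number as a block gave 671 calls in GR KO cortex and 2013 for the difference of responses. No sign of pairing by number was seen. Same-numbered AKI and healthy arrays deviated from their group means with correlations of -0.019, -0.0045 and -0.086 over genes. Arrays of different numbers gave -0.043 to 0.058. With so few arrays this check cannot show that pairing is absent.

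Of the 123 named genes called in GR KO cortex 76 passed in all 6 left-out fits, 44 failed without AKI replicate 1 and 17 without healthy replicate 1. None of the called genes changed sign under any setting run. Among named genes not called, 8 changed sign. With 1 array left out the values ran from -0.091 to 0.22 for Sgk1, -0.095 to 0.093 for Lrp2, -0.045 to 0.25 for Adgre1, -0.082 to 0.43 for Hspa1a, -0.14 to 0.054 for Per1, -0.11 to 0.15 for Cdk1, -0.058 to 0.30 for Mki67 and -0.015 to 0.14 for Top2a. After quantile normalization Sgk1 was at -0.013 and Lrp2 at 0.12, after loess Sgk1 was at -0.0027, and with array weights Adgre1 was at -0.014. For the named genes whose responses differed between the genotypes, 942 combinations of gene and setting kept that call and 88 lost it. None of these changed sign. Groups of 3 arrays limit the precision throughout.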
